A study of Mus musculus with 12 samples.

Results

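The interferon-inducible Ifi200 genes and Aim2 were described here as the probes of a mouse microarray whose gene name in the array files was Ifi202b, Ifi203, Ifi204, Ifi205, Mnda or Gm1313. Of these 6 names, 5 had a probe, among 27962 gene names on the array, and they were read by 11 of its 41174 probes. Ifi203, Ifi204 and Ifi205 had 3 probes each, Ifi202b and Gm1313 had 1 each, and 0 probes carried the name Mnda, whose current RefSeq symbol is Ifi211. Gm1313 is the older name of Aim2. All 11 probes passed the filter on dim signals, and 10 of them were well above background on all 12 arrays. The exception was the Ifi205 probe A_52_P14103, which passed only through wild type after interferon beta, so that it is described alone and kept out of the counts below.

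The proteins of this family carry a HIN domain, which binds DNA, and most also carry a pyrin domain, which binds other pyrin domains. AIM2 detects double-stranded DNA in the cytosol and recruits the adaptor ASC (gene Pycard) and caspase-1 into an inflammasome, which matures interleukin-1β and interleukin-18. In mouse, p202 (gene Ifi202b) lacks the pyrin domain and acts as an inhibitor of AIM2, while p204 (gene Ifi204) has been tied to the STING pathway of DNA sensing and to macrophage differentiation. The genes lie together on mouse chromosome 1, and type I interferon induces them through the receptor IFNAR and the transcription factor ISGF3, which contains STAT2 and IRF9.

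RNA came from peritoneal exudate cells, the mixed cells washed out of the abdominal cavity, of female mice aged 8 weeks, 3 h after an intraperitoneal injection. The 4 groups had 3 arrays each: Ifnar2-/- given interferon beta (IFN-β, 10000 IU/ml with the volume not given), Ifnar2-/- given phosphate-buffered saline (PBS), wild type given IFN-β and wild type given PBS. Ifnar2 codes for a subunit of the type I interferon receptor, and the labels give 129S2/SvPas*BALB/c as the strain of all 12 mice, each array being a different mouse per the series' design text. The sources used here do not say how the Ifnar2 allele was made.

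Every value below is a probe's processed signal on the log2 scale, set relative to the 75th percentile over its array and called the log2 signal, so that levels are compared between arrays for 1 probe and never between probes. The share of spots that stood well above background ran from 59.4% to 71.6% over the arrays, and the 4 arrays of slide 3, all Ifnar2-/-, had the 4 lowest shares. The Ifnar2 probe A_52_P190405 was lower in Ifnar2-/- than in wild-type cells after PBS by a log2 difference of -1.85 ± 0.14 (SE, limma adjusted p = 5.67e-05). The other Ifnar2 probe, A_51_P338924, was higher by 0.96 ± 0.18 (limma adjusted p = 0.0152), and the position of either relative to the deleted part is not known here.

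The 11 family probes all lie on chromosome 1 between positions 173437222 and 173992659 of the mouse build mm7, the build named in the file headers. Exons and introns were not assigned, since no annotation of that build was used. Neighbouring genes of the cluster are near-copies of each other, and the accessions that the files attach to 2 of the probes name several genes. The 60-base sequences of these shared probes and of an Ifi204 and an Ifi205 probe that list a single gene are shown so that the values can be read against what each probe detects, all on the minus strand of mm7.
A_52_P83479, named Ifi204 and listing Ifi204, Ifi211 and Ifi205, chr1:173727972-173728031: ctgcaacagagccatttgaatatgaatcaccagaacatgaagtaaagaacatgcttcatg
A_51_P377620, named Ifi205 and listing Ifi205, Ifi211 and Ifi204, chr1:173981003-173981062: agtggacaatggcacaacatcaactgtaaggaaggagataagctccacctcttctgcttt
A_51_P408343, listing Ifi204 alone, chr1:173721318-173721377: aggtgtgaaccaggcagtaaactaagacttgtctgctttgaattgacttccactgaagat
A_52_P435154, listing Ifi205 alone, chr1:173992600-173992659: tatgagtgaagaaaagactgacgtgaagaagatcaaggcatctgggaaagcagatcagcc
Values of the first 2 of these are therefore uncertain as to the gene, and Mnda can only be seen through them. The 3 Ifi203 probes and A_52_P14103 list 0 RefSeq genes, so that they are tied to a gene only by the array's own labels.

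The promoter stretches of the cluster were examined because its genes moved together. RefSeq windows of GRCm38.p6 (strain C57BL/6J), running from 250 bases before to 50 bases after a gene's start, were found for 5 of the 6 member genes, all but Ifi204, and for 7 other genes of the cluster, Ifi206, Ifi207, Ifi208, Ifi209, Ifi213, Ifi214 and Mndal. The letters GAAANNGAA, from the core of the interferon-stimulated response element (ISRE) that ISGF3 binds, were searched on both strands and stood in a window of 9 of these 12 genes, against 8.56% of 32851 mouse windows. The 9 were Ifi203, Ifi205 and Ifi211 among the members and Ifi206, Ifi207, Ifi208, Ifi213, Ifi214 and Mndal among the others. The exact letters GAAATCGAA stood in windows of 7 of the 12 genes and in 0.091% of all windows. The match of each of the 6 genes below is in capitals, with the first base at -40 from the start for Ifi206, -41 for Ifi207, -73 for Ifi213, -37 for Ifi211, -134 for Ifi205 and -35 for the second annotated start of Ifi203. They are shown to set the near-identical letters of these copies side by side, on GRCm38.p6.
Ifi206, chr1:173491319-173491418, minus strand: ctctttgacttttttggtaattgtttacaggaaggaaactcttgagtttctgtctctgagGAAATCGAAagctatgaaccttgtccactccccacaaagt
Ifi207, chr1:173741810-173741909, minus strand: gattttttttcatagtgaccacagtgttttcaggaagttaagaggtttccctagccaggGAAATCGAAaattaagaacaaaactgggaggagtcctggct
Ifi213, chr1:173599273-173599372, minus strand: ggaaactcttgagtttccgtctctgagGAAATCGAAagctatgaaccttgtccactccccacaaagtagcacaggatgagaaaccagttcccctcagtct
Ifi211, chr1:173913047-173913146, minus strand: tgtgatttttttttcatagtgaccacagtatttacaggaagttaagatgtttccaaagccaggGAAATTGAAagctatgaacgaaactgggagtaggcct
Ifi205, chr1:174031816-174031915, minus strand: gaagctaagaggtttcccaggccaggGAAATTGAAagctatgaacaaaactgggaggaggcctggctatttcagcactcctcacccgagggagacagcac
Ifi203, chr1:173942508-173942537, minus strand: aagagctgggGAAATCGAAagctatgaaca
The windows of Aim2, Ifi202b and Ifi209 did not hold the core letters, which says only that these letters are not in those windows. The letters GAGGAA, a core of the sites of the myeloid factor PU.1, stood in windows of 5 of the 12 genes, against 28.3% of all windows, and in Ifi206, Ifi208, Ifi213 and Ifi214 they overlap the ISRE letters. A match is a description of letters and not a measured site.

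In wild-type mice, every measured gene of the family rose after IFN-β. Of the 10 probes well above background on all arrays, 10 rose, against 18.4% of the 27714 probes tested that rose in this comparison, and their median log2 difference was 3.74 against -0.04 over all probes tested. The 8 probes other than that of Gm1313 and 2 of Ifi205 rose by between 9.23-fold and 31.5-fold, with limma adjusted p between 4.3e-09 and 3.01e-06. On each of the 10, the 3 wild-type arrays after IFN-β lay above the 3 after PBS, but the share of all probes that separate in this way was not counted. Summed over 8 measured monocyte markers, the signal relative to each array's 75th percentile was 482 to 528 in wild type after IFN-β and 233 to 261 after PBS, and 5 of the 8 rose, the largest being Chil3 by 3.46 and Ms4a6c by 3.13 on the log2 scale. The sum of 10 T and NK cell markers was 2.68 to 3.34 after IFN-β and 5.86 to 6.36 after PBS, and 5 of those 10 fell, Thy1 the most (-2.09), while Eomes rose. Of 9 B cell markers 4 fell, Fcer2a the most (-2.45), with sums of 189 to 233 after IFN-β and 188 to 279 after PBS, and of 9 markers of large peritoneal macrophages 2 rose and 2 fell. Of all genes tested, 17.5% rose and 22% fell in wild type after IFN-β, against which these marker counts are to be read. In bulk RNA more cells of a type and more RNA per cell cannot be told apart. The part of a changed cell mix in the family's rise was not tested.

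**Figure D1:**
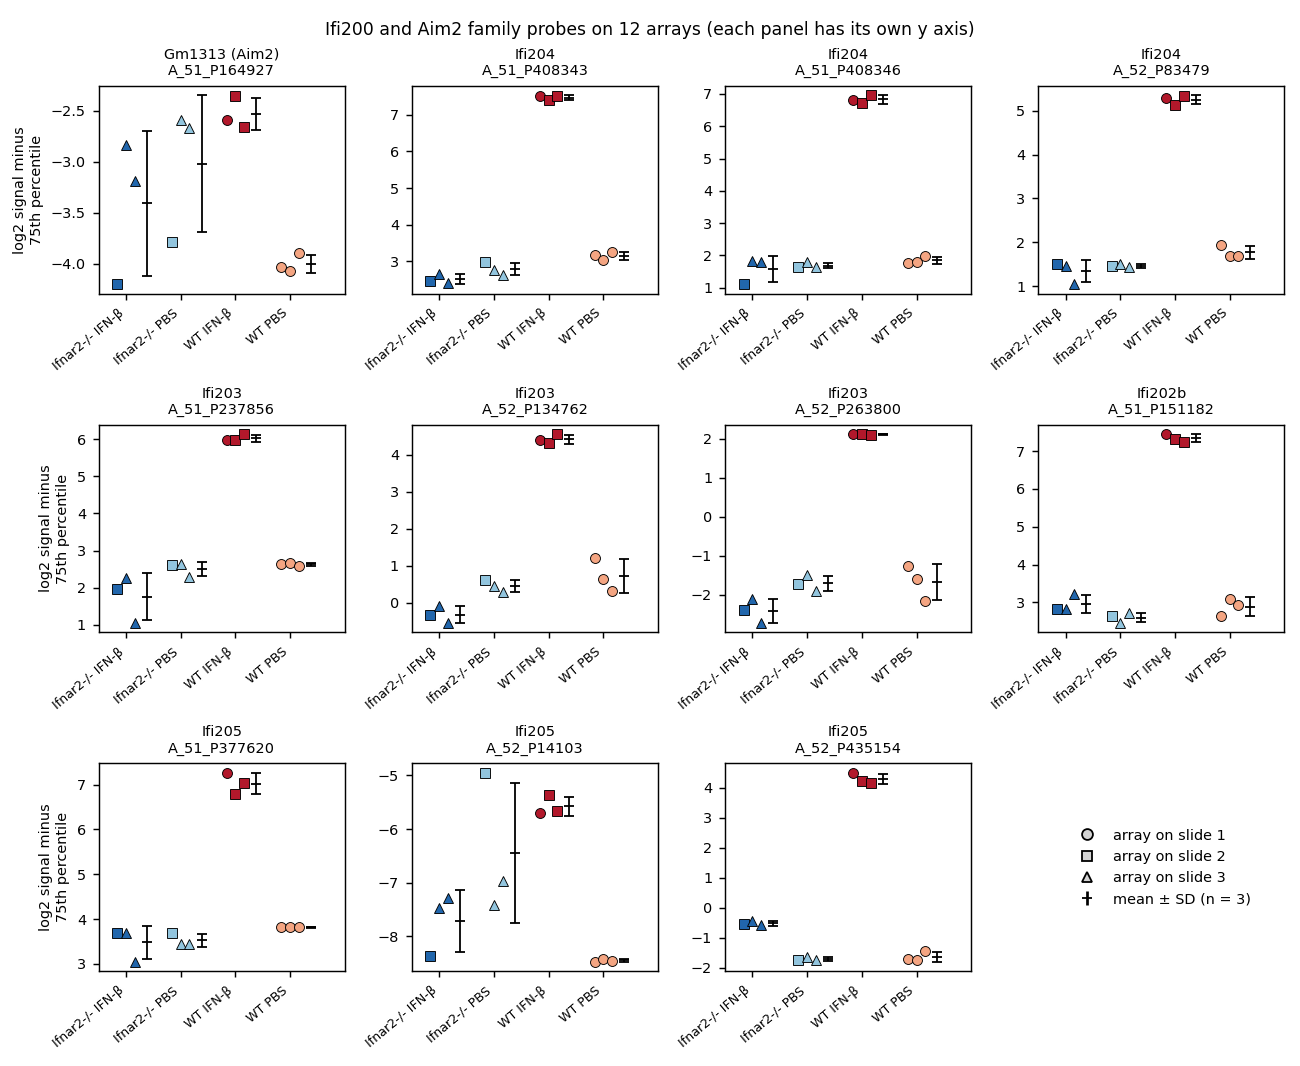
Log2 signal (relative to the 75th percentile over the array) of the 11 family probes on 12 arrays, 1 panel per probe with its own y axis. Points are arrays, with shapes for the slides, and bars are the mean ± SD (n = 3). Wild type after IFN-β lies above wild type after PBS in every panel, and the share of all probes that separate in this way was not counted. The Gm1313 values of Ifnar2-/- arrays are higher on slide 3 than on slide 2.

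Ifi202b, the AIM2 inhibitor, had log2 signals of 2.82, 2.82 and 3.22 in Ifnar2-/- cells after IFN-β, against 2.64, 2.46 and 2.71 after PBS. It had 7.45, 7.33 and 7.25 in wild-type cells after IFN-β, against 2.63, 3.10 and 2.94 after PBS. The 3 wild-type IFN-β arrays stood far above the other 9, and the wild-type PBS arrays overlapped with both Ifnar2-/- groups. In wild type it rose 21.9-fold, a log2 difference of 4.45 ± 0.16 (SE, limma adjusted p = 1.68e-08). The change in Ifnar2-/- was 0.35 ± 0.16 (limma adjusted p = 0.268), with a 95% interval of 0.0033 to 0.70 before adjustment over all probes. Its level is known to vary between inbred mouse strains and to be low in C57BL/6J, the strain of the RefSeq window above, and in these mice its probe was well above background on all 12 arrays. The mm7 span of the probe, chr1:173928807-173929836, is longer than the probe's 60 bases. Whether the probe crosses a splice junction was not checked, since exons were not assigned.

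Ifi204 was read by 3 probes. A_51_P408343 had log2 signals of 7.50, 7.39 and 7.52 in wild type after IFN-β, against 3.17, 3.04 and 3.25 after PBS, and rose by 4.32 ± 0.12 on the log2 scale (limma adjusted p = 4.3e-09). A_51_P408346, which lies next to it, had 6.81, 6.72 and 6.96 after IFN-β, against 1.77, 1.81 and 1.97 after PBS, and rose by 4.98 ± 0.18 (limma adjusted p = 1.85e-08). The shared probe A_52_P83479 rose by 3.49 ± 0.14 (limma adjusted p = 3.6e-08). The 95% interval of that last log2 difference, 3.17 to 3.80, lay below those of the other Ifi204 probes, 4.05 to 4.59 and 4.58 to 5.37, so the probes gave unequal sizes for 1 gene name. In Ifnar2-/- cells, A_51_P408343 had 2.45, 2.66 and 2.41 after IFN-β, against 2.98, 2.75 and 2.64 after PBS, with overlapping groups.

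Ifi203 codes for a family member whose function is less well known. Its probe A_51_P237856 had log2 signals of 5.97, 5.97 and 6.14 in wild type after IFN-β, against 2.64, 2.67 and 2.59 after PBS, and rose by 3.39 ± 0.25 on the log2 scale (limma adjusted p = 3.01e-06). The other Ifi203 probes, A_52_P134762 and A_52_P263800, rose by 3.70 ± 0.21 and 3.78 ± 0.22. In Ifnar2-/- cells the same 3 probes, read on the same arrays, had lower means after IFN-β than after PBS. Of all probes tested, 0.173% fell there by the limma test. A_51_P237856 had 1.96, 2.26 and 1.05 in Ifnar2-/- cells after IFN-β, against 2.61, 2.63 and 2.29 after PBS. A_52_P134762 had -0.34, -0.10 and -0.54 after IFN-β, against 0.60, 0.45 and 0.28 after PBS. The log2 differences of the 3 probes were -0.75, -0.77 and -0.70, and none passed the test (limma adjusted p = 0.168, 0.11 and 0.151).

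Ifi205 codes for a nuclear family member of mouse myeloid cells, and its 3 probes disagreed in size. A_52_P435154, the probe that lists Ifi205 alone, had log2 signals of 4.49, 4.24 and 4.15 in wild type after IFN-β, against -1.71, -1.74 and -1.44 after PBS. It rose 60.6-fold (log2 5.92 ± 0.13, limma adjusted p = 9.73e-10), the largest rise among the family's probes, and stood at rank 73 of the 27714 probes ordered by this difference. The shared probe A_51_P377620 had 7.25, 6.78 and 7.03 after IFN-β, against 3.82, 3.81 and 3.82 after PBS, and rose 9.23-fold (log2 3.21 ± 0.19, limma adjusted p = 4.42e-07). Their 95% intervals, 5.64 to 6.20 and 2.80 to 3.62 on the log2 scale, did not overlap. The third probe, A_52_P14103, which the files describe as Ifi204, stood well above background on 3 of 3 wild-type arrays after IFN-β, on 0 after PBS, on 0 of Ifnar2-/- after IFN-β and on 1 after PBS. It had -5.70, -5.37 and -5.66 in wild type after IFN-β, against -8.48, -8.42 and -8.46 after PBS. Set against the lowest signals well above background, it was at least 1.92-fold higher after IFN-β. The limma adjusted p of 0.00137 belongs to the difference without that bound. This call was lost with normexp background correction (limma adjusted p = 0.0567 after quantile scaling).

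Gm1313 (Aim2), the inflammasome sensor, had the smallest rise of the 10 probes well above background on all arrays. Its log2 signals in Ifnar2-/- cells were -4.20, -2.83 and -3.19 after IFN-β, against -3.79, -2.59 and -2.67 after PBS, and the difference of -0.39 ± 0.36 did not pass the test (limma adjusted p = 0.606). In wild type they were -2.59, -2.35 and -2.65 after IFN-β, against -4.04, -4.07 and -3.90 after PBS, a rise of 2.77-fold (log2 1.47 ± 0.36, 95% interval 0.66 to 2.27, limma adjusted p = 0.00837). The lowest value of each Ifnar2-/- group was its slide 2 array, and the others lay on slide 3. Within slide 1, the wild-type array after IFN-β was 1.41 above the mean of those after PBS. Within the slides that held both treatments of Ifnar2-/-, the log2 differences were -0.41 on slide 2 and -0.38 on slide 3. Only 20.0% of the bases of this probe are G or C.

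Without Ifnar2, 9 of the 10 probes did not pass the test after IFN-β. Of the 10, 1 rose and 0 fell in Ifnar2-/- cells after IFN-β, against 0.942% of all probes tested that rose and 0.173% that fell, with a median log2 difference of -0.20 among the 10 and -0.02 over all. The probe that rose was the Ifi205 probe A_52_P435154, with log2 signals of -0.54, -0.44 and -0.58 in Ifnar2-/- after IFN-β, against -1.75, -1.63 and -1.74 after PBS. All 3 arrays after IFN-β lay above all 3 after PBS, and also above the wild-type PBS arrays. The rise was 2.28-fold (log2 1.19 ± 0.13, 95% interval 0.91 to 1.47, limma adjusted p = 0.00259), with 1.21 within slide 2 and 1.18 within slide 3, and it missed the threshold when only the groups compared were fitted (limma adjusted p = 0.0532). The shared Ifi205 probe A_51_P377620 had 3.69, 3.69 and 3.05 in Ifnar2-/- after IFN-β, against 3.68, 3.45 and 3.44 after PBS, a difference of -0.05 ± 0.19 with a 95% interval of -0.46 to 0.36. The summed signal of 9 measured neutrophil markers was 21.5 to 200.2 in Ifnar2-/- after IFN-β and 12.4 to 17.4 after PBS, relative to the 75th percentile. Its part in the Ifi205 rise was not tested, and none of those 9 markers passed the test in this comparison, although the median of their log2 differences was 1.98.

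The responses of the genotypes were set against each other directly. For all of the 10 probes the response was lower in Ifnar2-/- than in wild type, against 9.19% of all probes tested with a lower response and 8.54% with a higher one, with a median log2 difference between responses of -4.31 for the 10 and 0.04 over all probes. Ifi204 had the largest difference, -5.08 ± 0.25 at A_51_P408346 (limma adjusted p = 6.15e-07). Ifi202b had -4.10 ± 0.22 (limma adjusted p = 9.19e-07) and the Ifi205 probe A_52_P435154 had -4.73 ± 0.18 (limma adjusted p = 1.1e-07). Gm1313 had the smallest of the 10, -1.86 ± 0.51 (limma adjusted p = 0.0298, 95% interval -3.00 to -0.72). That call was lost in 7 of the 12 fits that left out an array, with limma adjusted p of 0.0548 to 0.0733, namely without PBS array 1, 2 or 3 or IFN-β array 1 or 2 of wild type, or without PBS array 2 or 3 of Ifnar2-/-. Its log2 difference lay between -2.25 and -1.46 over the 12 fits.

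The resting level of the family after PBS did not differ detectably between the genotypes. Of the 10 probes, 0 passed the limma test, against 2.49% of all probes tested that were higher in Ifnar2-/- and 2.04% that were lower. Their median log2 difference was -0.22, against -0.01 over all probes tested, and several of the 10 read the same gene on the same arrays. For the 8 probes other than those of Gm1313, A_52_P14103 and A_52_P435154, the log2 differences were -0.36 to -0.04, with 95% intervals that ran from -0.74 to 0.46 at their widest. The dim Ifi205 probe A_52_P14103 was well above background on 1 of the 3 Ifnar2-/- arrays and on 0 of the wild-type arrays after PBS, so that no size is given for it. Gm1313 differed by 0.99 ± 0.36 (limma adjusted p = 0.171), and by 0.12 with the slide as a fixed block. No slide held PBS arrays of both genotypes, so that slide and genotype can be told apart in this comparison only through the other groups, and over all probes the calls numbered 1253, against 57 with the slide as a fixed block.

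Between the member probes along mm7 lie 10 other probes, a set taken from the positions in the files. Of these, 9 were well above background on all 6 wild-type arrays, and all 9 rose in wild type, against 18.4% of all probes tested. Their log2 differences were 3.10 to 7.43, with a median of 5.46. Of the 9, 0 passed the limma test in Ifnar2-/-, near the 0.942% of all probes tested that rose and the 0.173% that fell there. The 6 that were well above background on all 12 arrays differed there by -0.73 to 0.19. LOC240921, whose number also stands in EG240921, an older name of Ifi206 in the RefSeq table, had log2 signals of 3.19, 3.37 and 2.99 at A_52_P326187 in wild type after IFN-β, against -4.06, -4.55 and -4.13 after PBS. It rose 173-fold (log2 7.43 ± 0.34, limma adjusted p = 7.35e-08). LOC623121, whose number is the RefSeq gene ID of Ifi213, passed the filter only through wild type after IFN-β. It was not well above background in wild type after PBS, so only a bound is given, at least 81.0-fold higher after IFN-β. Ifi207 (AI607873) rose by 5.45 ± 0.27 and Ifi209 (AI447904) by 5.26 to 5.57 over its 3 probes on the log2 scale. E430029J22Rik, a name that the RefSeq table lists under both Ifi213 and Ifi208, rose by 6.63 ± 0.41.

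**Figure D2:**
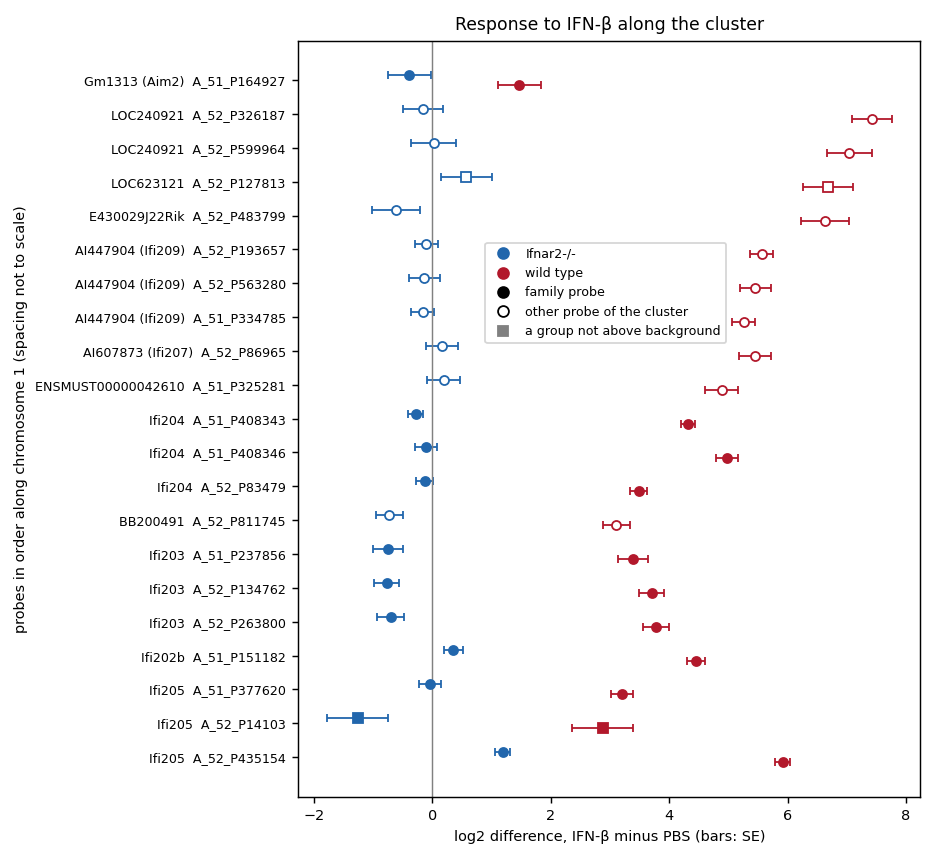
Log2 difference of IFN-β minus PBS (x axis, bars are SE) in Ifnar2-/- and in wild type for the 11 family probes and the 10 other probes between them, in order along chromosome 1 with spacing not to scale. Squares mark differences of which at least 1 group was not well above background on any array, so that their size is not exact; the circles run between -0.77 and 1.19 in Ifnar2-/- and between 1.47 and 7.43 in wild type.

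Outside the cluster, 26 probes lie within 500 kb of it, and 8 of them passed the filter. Of these 8, 1 rose in wild type after IFN-β and 0 fell, against 18.4% and 21.6% of all probes tested. It was Olfr433, of an olfactory receptor gene beside Ifi205, with log2 signals of -2.14, -2.03 and -1.77 after IFN-β, against -2.99, -2.89 and -3.16 after PBS (log2 1.03 ± 0.22, limma adjusted p = 0.00341). Fcer1a, the high-affinity IgE receptor chain of mast cells, was higher in Ifnar2-/- than in wild type after PBS by 1.48 ± 0.18 (limma adjusted p = 0.00105, and 0.337 with the slide as a fixed block). The sum of 8 mast cell markers was 312 to 380 in Ifnar2-/- after PBS and 225 to 302 in wild type after PBS, and its part in that difference was not tested.

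Among genes of the same pathways, cytosolic DNA sensing moved in part. Of 21 genes tested, 10 rose and 3 fell in wild type after IFN-β, against 17.5% and 22% of 18273 genes read from 1 probe each, and the median log2 difference was 0.34 against -0.05 over all those genes. The largest rises were those of Irf7, a transcription factor of interferon genes (6.46 ± 0.22, limma adjusted p = 1.27e-08), and Zbp1, a sensor of left-handed nucleic acid (6.09 ± 0.15, limma adjusted p = 1.39e-09). Cgas, which makes the STING ligand from DNA, rose by 2.89 ± 0.17 and Ikbke, a kinase of IRF3 and IRF7, by 1.90 ± 0.16. In Ifnar2-/-, Ikbke alone of the 21 passed the test, with 1.72 ± 0.16 (limma adjusted p = 0.00127, and 0.0566 when only the groups compared were fitted), against 0.936% of all genes that rose and 0.202% that fell. Irf7 and Zbp1 were lower in Ifnar2-/- than in wild type after PBS, by -1.54 ± 0.22 and -1.07 ± 0.15 on the log2 scale, against 2.02% of all genes that were lower, but with the slide as a fixed block neither passed the test (limma adjusted p = 0.446 and 0.529).

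Of 16 tested inflammasome genes, 12 rose and 0 fell in wild type, against 17.5% and 22% of all genes, with a median log2 difference of 1.62. The list holds partners and products of AIM2, such as caspase-1 and interleukin-18, but also genes of other inflammasomes (Nlrp3, Nlrc4, Naip2, Naip5, Mefv and Nek7), of which Naip2, Naip5 and Mefv rose. Il1rn, the interleukin-1 receptor antagonist, rose by 4.51 ± 0.66, Il18 by 2.79 ± 0.16, Casp4, an inflammatory caspase, by 2.59 ± 0.13, and Il18bp, the binding protein that neutralizes interleukin-18, by 2.55 ± 0.18. In Ifnar2-/- 4 of the 16 rose and 0 fell, against 0.936% and 0.202% of all genes. The 4 were Il1b by 3.75 ± 0.64 (limma adjusted p = 0.0243), Il1rn by 3.44 ± 0.66 (0.04), Il1a by 1.76 ± 0.28 (0.0184) and Casp4 by 0.79 ± 0.13 (0.0227). None of these 4 passed when only the groups compared were fitted (limma adjusted p between 0.0659 and 0.267). The responses of 7 of the 16 were lower in Ifnar2-/-, against 9.05% of all genes, and 1, that of Il1b, was higher, against 8.79%. That Il1b call was lost with the slide as a fixed block (limma adjusted p = 0.181) and in 9 of the 12 fits that left out an array. Il1b had log2 signals of -0.54, -0.98 and -0.93 in wild type after IFN-β, against 0.18, -2.84 and -1.86 after PBS, and without wild-type PBS array 1 its wild-type difference was 1.53 (limma adjusted p = 0.0272), against 0.69 with it. The neutrophil marker sum was 17.5 to 24.8 in wild type after IFN-β, against 109, 15.7 and 10.4 after PBS, the 109 being that of the same PBS array 1. The part of the neutrophil markers in these values was not tested.

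Of 12 tested enzymes that degrade DNA, limit nucleotides or edit RNA, 3 rose and 4 fell in wild type, against 17.5% and 22% of all genes. The 3 were Samhd1, which breaks down deoxynucleotides (3.30 ± 0.14), Adar, which edits double-stranded RNA (2.79 ± 0.12), and Trex1, which degrades cytosolic DNA (2.64 ± 0.11), and Dnase2a, of lysosomal DNA digestion, had the largest fall (-1.26 ± 0.31, limma adjusted p = 0.00791). None of the 12 passed the test in Ifnar2-/-, near the 0.936% of all genes that rose there and the 0.202% that fell. Of ISGF3, Stat2 rose by 3.58 ± 0.14 and Irf9 by 1.73 ± 0.13 in wild type after IFN-β. Neither passed the test in Ifnar2-/- after IFN-β, and Irf9 was lower in Ifnar2-/- than in wild type after PBS by -0.97 ± 0.13 (limma adjusted p = 0.00202, and 0.516 with the slide as a fixed block). Among 18 tested genes of proteins tied to p202 and p204 in growth control, 5 rose and 4 fell in wild type, near the 17.5% and 22% of all genes. Rbl1, of the retinoblastoma relative p107, rose by 2.40 ± 0.14, Jun, of the transcription factor AP-1, by 1.97 ± 0.38 and Max, the partner of MYC, by 1.68 ± 0.12, while Rbl2, of another retinoblastoma relative, fell by 1.67 on the log2 scale. In Ifnar2-/- 1 of the 18 passed the test, against 0.936% of all genes that rose and 0.202% that fell. It was Id1, an inhibitor of helix-loop-helix factors, with 1.66 (limma adjusted p = 0.0351, and 0.188 when only the groups compared were fitted).

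**Figure D3:**
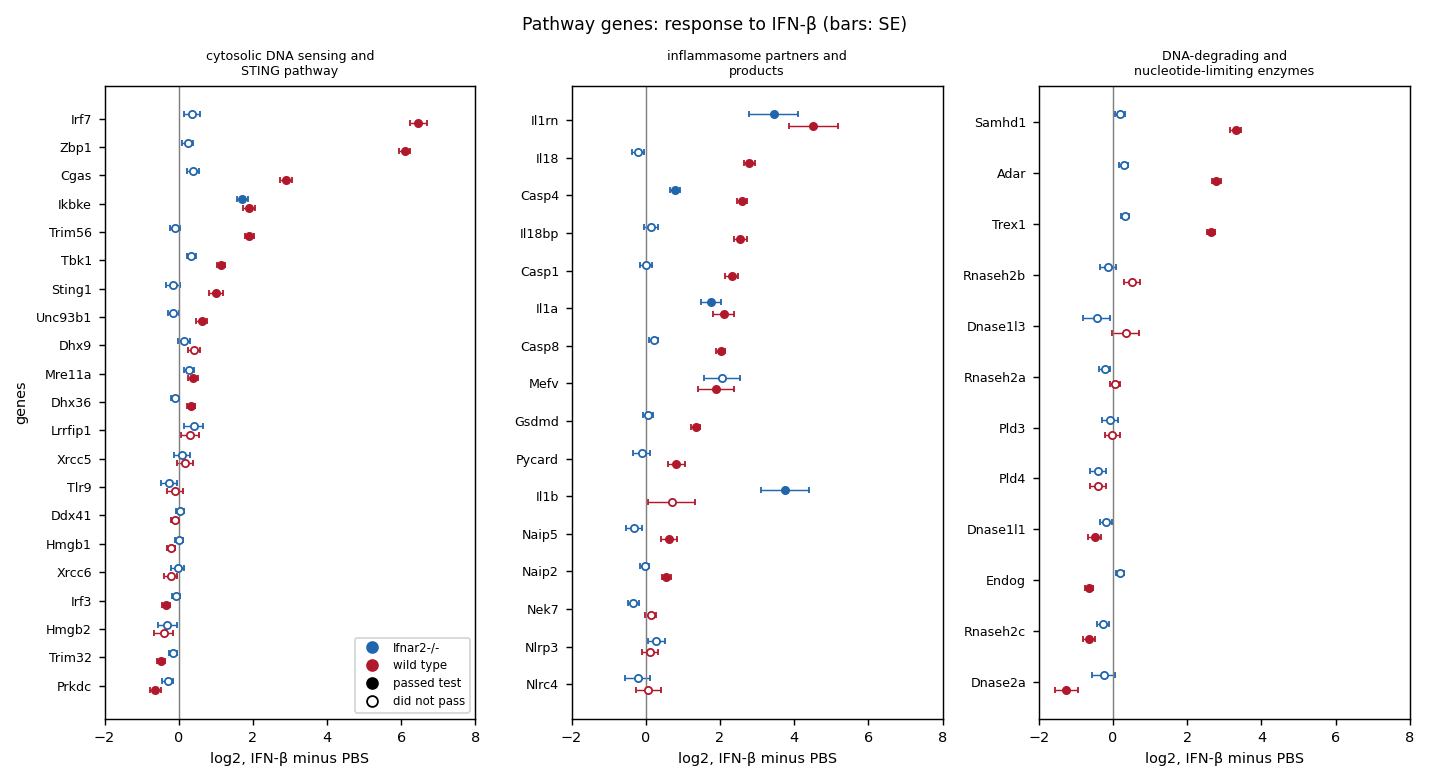
Log2 difference of IFN-β minus PBS (x axis, bars are SE) for the tested genes of 3 pathway lists in Ifnar2-/- and in wild type; filled points passed the limma test. Irf7 (6.46) and Zbp1 (6.09) show the largest wild-type rises, and Il1b stood at 3.75 in Ifnar2-/- and at 0.69 in wild type, where PBS array 1 stood apart.

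The genes whose log2 signals followed each member most closely over the 12 arrays were read by Pearson's r, as a description, since the arrays share their groups and slides. Ifi204 was followed by Phf11a (0.999), Stat2 (0.998) and Phf11d (0.998), and Ifi202b by Pnp (0.998), Tor1aip2 (0.997) and Lgals8 (0.997). Ifi203 was followed by Uba7 (0.998), Dck (0.995) and the transcript TC1485374 (0.994). Each member was read from its probe of highest mean, which for Ifi205 was A_51_P377620, which also lists Ifi211 and Ifi204, so that its neighbours 1600014C10Rik (0.998), Gbp5 (0.997) and Cenpj (0.997) are those of the shared probe and not of Ifi205 alone. All 12 of these probes had positive differences in wild type after IFN-β, from 1.75 for Cenpj to 5.44 for Gbp5 on the log2 scale. They were picked by r with members that rose there, so that their direction is not a separate result. Gm1313 had other neighbours, Sprr2b (0.966), Prm1 (0.965) and Tnp2 (0.960), whose log2 differences in wild type were 0.84, 2.59 and 0.99. The slide 3 arrays of Tnp2 ran from -4.15 to -3.79, against -4.97 to -3.68 on the other slides.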

How the data were processed

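The deposited files are scanner output of 12 one-colour Agilent mouse arrays quantified with Agilent Feature Extraction 9.5.3.1, per the file headers. The processed signal is an intensity on a linear scale after the scanner software's background and trend correction, per the file headers, and the authors deposited the mean signal and local background intensities too. The deposited table of the whole series held the same processed intensities (0 of 45018 values differed) and was not analysed separately.

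Here the log2 processed signal was set relative to the 75th percentile over each array, outlier spots were left out, and spots of a probe were averaged. Probes that were well above background throughout 1 group or more, with a value on at least 6 arrays, were kept (27714). All 12 arrays entered 1 limma 3.58.1 fit of 4 group means in R 4.3.3 (8 residual and 2.54 prior degrees of freedom), with figures drawn with matplotlib 3.10.9 in Python 3.11.15. Tests were two-sided, with Benjamini-Hochberg adjustment over all kept probes and a threshold of 0.05. Errors of differences are SE. For pathway lists a gene was read from its kept probe of highest mean. Genes named in a list are up to 4 that passed the test, by size, while every family probe is named. The pathway and marker lists, like the family members, were chosen with earlier results of these data known. Of the interferon receptor and ISGF3 list, a gene and the list's counts are not reported here. The fit was tested on simulated data. The number of arrays limits the precision.

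Deviations from the group means were correlated between same-numbered arrays of different groups, and 4 of 18 pairs had r over 0.1. The highest r, 0.49, was that of the Ifnar2-/- arrays numbered 1, which also shared slide 2. Number and slide cannot be told apart there, and the fit reported did not pair arrays by number. Names came through RefSeq (GRCm38.p6) accessions and symbols. The alternatives tried were other scalings, background corrections, filters and blocks, and leaving out each array.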

Additional observations from a re-analysis of the deposited data

Results flagged for a closer look

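The response to IFN-β differed between the genotypes, by the limma test of the difference itself, at the 10 family probes that were well above background on all arrays, and each difference is given here as Ifnar2-/- minus wild type on the log2 scale. It was -4.10 for Ifi202b and -1.86 for Gm1313 (Aim2). For Ifi203 it was -4.14 at A_51_P237856, -4.48 at A_52_P134762 and -4.48 at A_52_P263800. For Ifi204 it was -4.60 at A_51_P408343, -5.08 at A_51_P408346 and -3.61 at A_52_P83479. For Ifi205 it was -3.25 at A_51_P377620 and -4.73 at A_52_P435154.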

How the results depend on the processing

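The 44 results of the family probes were tested under up to 24 other settings, 1017 tests in all, of which 998 kept their side of the threshold, 14 lost a call and 5 gained one. The sign turned in 18 tests, all of differences that were called neither there nor in the fit reported, and in 0 called values. Of the lost calls, 9 were Gm1313's difference between the genotypes, 7 of them on leaving out an array, as given above, and the others with no scaling between arrays (-1.59, adjusted p = 0.079) and with no filter on dim probes (-1.86, adjusted p = 0.0624). The dim Ifi205 probe A_52_P14103 lost 4, all with normexp background correction: in wild type (adjusted p = 0.0567 after quantile and 0.051 after 75th percentile scaling) and between the genotypes (0.092 and 0.0783). The last was A_52_P435154 in Ifnar2-/-, given above. The gained calls were all after PBS: A_52_P14103 with no scaling, with the slide as a random block, and without Ifnar2-/- PBS array 1 or 2, and Gm1313 without Ifnar2-/- PBS array 1. Of 2656 tests of 28 other named genes, 139 lost a call, 9 gained one and 2 turned direction: the difference between the genotypes of Il1a, -0.34 and not called, was 0.77 (adjusted p = 0.0289) with normexp and quantile scaling and 0.66 (0.0415) with normexp and 75th percentile scaling. The causes were not tested.

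Counting the dim probe too, the number of family probes called in Ifnar2-/- after IFN-β was 1, and 0 with only the groups compared. After PBS 1 was called with no scaling and 1 with the slide as a random block, and 0 to 2 on leaving out an array. Leaving out an array gave 11 in wild type, 1 in Ifnar2-/- and 10 to 11 for the difference. Over all probes, the calls in Ifnar2-/- numbered 309, against 469 after normexp and quantile scaling, 95 with no filter, 179 with the slide as a fixed block and 19 with only the groups compared. The replicate block gave 199 there, and moved no count of family probes. Calls in wild type numbered 11085, against 7194 with 1 probe per gene, where fewer were tested, and 6861 with the slide as a fixed block. Calls for the difference numbered 4915, against 3261 and 2956 under the same settings, and calls after PBS 1253, against 57 with the slide as a fixed block. Leaving out an array gave 41 to 423 in Ifnar2-/-, 8898 to 12241 in wild type, 3633 to 5938 for the difference and 621 to 1807 after PBS. Signals near background limit A_52_P14103 alone among the family.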
